A study of Mus musculus with 8 samples.

Results

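The interleukin-1 (IL-1) and interleukin-18 (IL-18) cytokine system was followed in PyMt mammary tumors through 10 named genes: the cytokines Il1a, Il1b and Il18, the receptor antagonist Il1rn, the receptors Il1r1, Il1r2, Il1rap and Il18r1, the protease Casp1 and the sensor Nlrp3. They are 10 of the 55414 genes in the deposited RNA-Seq table, matched by gene symbol. The rule that chose them names genes and uses no measured value. Earlier results of these data were known, however, when these genes and the lists used below were chosen. Female WT C57BL/6 mice, 6 to 8 weeks old where an age is given, carried orthotopic tumors grown from a cell line that was derived from a single tumor of an MMTV-PyMt transgenic mouse, in which the mammary-directed MMTV promoter drives the polyoma middle T oncogene. Starting 2 days after implantation, the skin over the tumor received ethanol solvent (EtOH, 4 tumors, numbered 1, 2, 3 and 4) or 20 nmol of calcipotriol, a vitamin D analog, in ethanol (4 tumors, numbered 1, 5, 6 and 7) every 2 days. Whole tumors were taken 24 hours after the final application, so all 8 share the host, the cell line and the solvent, and they contain host cells as well as tumor cells. The comparison asks how this cytokine system differed between treated and control tumors.

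IL-1α and IL-1β act on the receptor Il1r1, which signals only together with the accessory chain Il1rap. Il1r2 binds IL-1 without signaling and Il1rn encodes an antagonist that occupies Il1r1, so both restrain the pathway. IL-18 works through a related pair of chains, Il18r1 and Il18rap, and is held back by the soluble binding protein Il18bp. The precursors of IL-1β and IL-18 are cut to their active forms by caspase-1, which is activated in inflammasomes, complexes seeded by sensors such as Nlrp3. In tumors, macrophages and neutrophils are well-known sources of IL-1β, and epithelial cells of IL-1α and IL-18. Transcript levels do not show cleavage or secretion.

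The 8 libraries held between 19685419 and 25084713 counts. EtOH tumors 1 and 2 stood apart from 3 and 4: Pearson correlations of log2 values over genes within the EtOH group ran from 0.919 to 0.959, against 0.896 to 0.938 between the groups. Calcipotriol tumor 1 also stood apart, with correlations of 0.931 to 0.945 with the other treated tumors and 0.935 with EtOH tumor 3, where the other treated tumors correlated at 0.958 to 0.977 among themselves. The labels call the samples epithelial. The epithelial keratin Krt8 was at 285 to 652 CPM (counts scaled to library size) in the 8 tumors, whereas Epcam was at 0 counts in EtOH tumors 1 and 2 and reached 22.7 CPM in calcipotriol tumor 7. Over 7 epithelial markers the summed level was 1016 to 1322 CPM in EtOH-treated and 603 to 893 CPM in calcipotriol-treated tumors. The single markers went both ways, with 4 log2 fold changes positive and 3 negative. Of the 7, 1 was higher past both thresholds given next, and 1 was lower by adjusted p alone. The summed level of 9 macrophage markers was 2337 to 3338 CPM in EtOH-treated and 901 to 1517 CPM in calcipotriol-treated tumors, highest of the latter in tumor 1, and none of the 9 was at 0 in any tumor. Adgre1, Csf1r and Lyz2 were the 3 of these 9 that were lower past both thresholds given next. Endothelial markers (122 to 289 against 48.8 to 101 CPM) and erythroid genes (3457 to 5836 against 434 to 820 CPM) were also lower in sum in every treated tumor, and the part of these shifts in the results was not tested. In bulk tumor RNA, fewer cells of a type and less RNA per cell cannot be told apart. By staining for the protein that Adgre1 encodes, the study counted more macrophages in calcipotriol-treated than in EtOH-treated tumors. The mice of that count also received a control antibody, and cell counts per image field are a measure unlike bulk RNA.

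All 10 genes passed the filter on low counts and were tested among 14458 genes. None passed both thresholds, a Benjamini-Hochberg adjusted p under 0.05 from edgeR's quasi-likelihood test together with a log2 fold change of 1 or more in size, which 1.07% of all tested genes passed as higher and 0.948% as lower. By adjusted p alone, 1 of the 10, Casp1, was higher and 0 were lower, where 1.37% of all tested genes were higher and 1.37% lower. Groups that did not overlap were found for the same gene, 1 of 10, as higher and for 0 of 10 as lower, beside 6.32% and 6.16% of all tested genes. At an unadjusted p under 0.05, 1 of 10 was higher and 0 lower, beside 8.56% and 9.84% of all tested genes. Casp1 alone was also under an adjusted p of 0.05 by DESeq2, where 3.75% of all tested genes were higher and 4.46% lower, and by limma-voom, where 1.19% were higher and 1.54% lower. The log2 fold changes were positive for 4 genes and negative for 6, with a median of -0.25 against 0.02 over all tested genes.

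**Figure D1:**
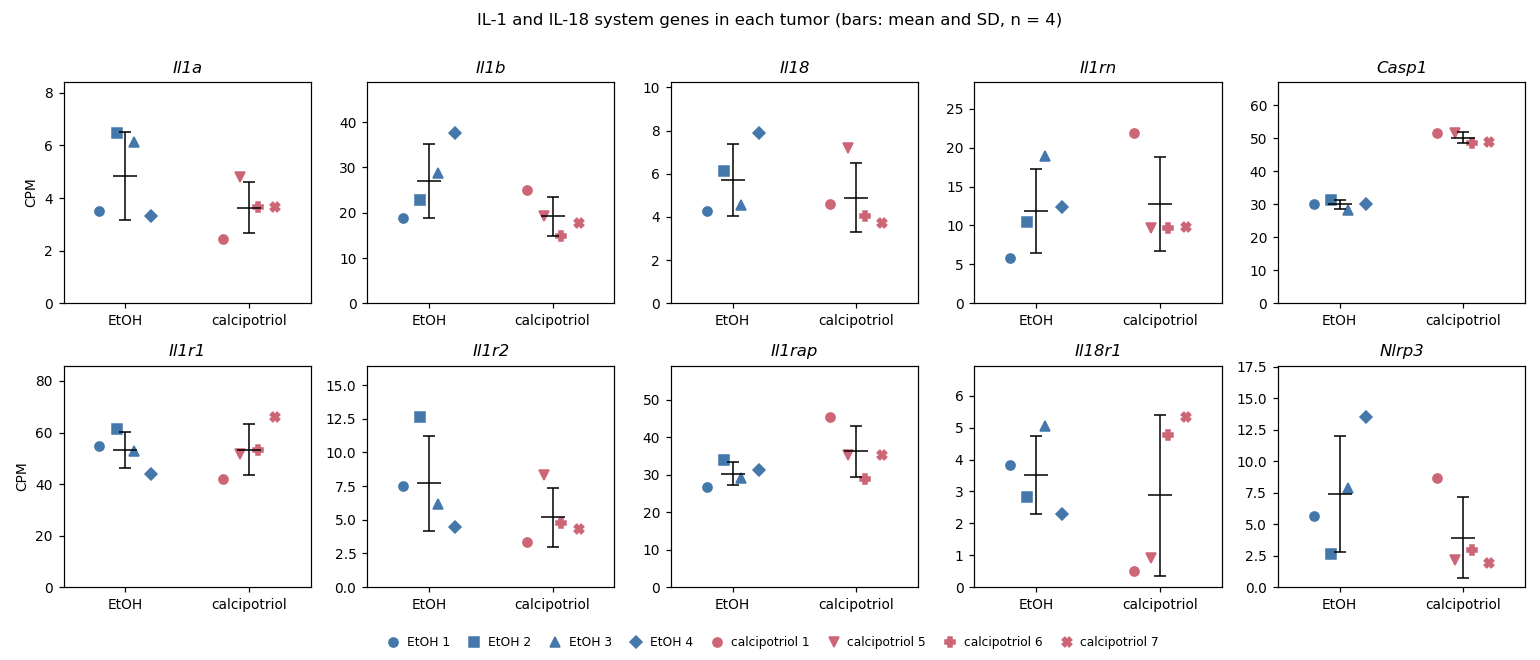
Level of each of the 10 genes (CPM, linear axis from 0) in the 4 EtOH-treated and 4 calcipotriol-treated tumors. Each symbol is a tumor and the bars are the mean and SD; the groups separate only for Casp1, at 28.3 to 31.3 against 48.5 to 51.6 CPM, and in calcipotriol tumor 1 Il1rn stands at 21.9 CPM while the other 3 lie at 9.66 to 9.79 CPM.

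Measured per kilobase of exon, a rough scale for comparing different genes, Casp1 ranked first of the 10 and Il18r1 last. The length was the union of all annotated exons of a gene, which can exceed that of the transcripts expressed in these tumors. The per-kilobase level of Casp1 was 19.999 ± 0.835 CPM in EtOH-treated and 33.4 ± 1.10 CPM in calcipotriol-treated tumors (SD, n = 4 each). Il1b came next with 14.2 ± 4.28 and 10.1 ± 2.23 CPM per kilobase, followed by Il1r1 with 8.36 ± 1.12 and 8.37 ± 1.56 CPM per kilobase. The SDs of these neighbors leave them apart in both groups, except for Il1b and Il1r1 in calcipotriol-treated tumors, whose mean ± SD ranges overlap. The remaining genes followed in the order Il18, Il1r2, Il1rap, Il1rn, Il1a, Nlrp3 and Il18r1, with group means from 5.54 CPM per kilobase for Il18 down to 0.598 CPM per kilobase for Il18r1, and from Il18 onward the mean ± SD ranges of neighbors in this order overlapped in both groups.

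Casp1 (ENSMUSG00000025888, chr9:5298517-5307265, plus strand, GRCm38) encodes the protease that matures IL-1β and IL-18. Its level was 30.0, 31.3, 28.3 and 30.2 CPM in EtOH tumors 1, 2, 3 and 4 and 51.6, 51.4, 48.5 and 48.7 CPM in calcipotriol tumors 1, 5, 6 and 7. Every calcipotriol-treated tumor lay above every EtOH-treated tumor, and within each group the tumors were close together, including the EtOH tumors that stood apart by their other genes. The log2 fold change was 0.74 with a standard error of 0.11 and a 95% interval from 0.49 to 0.99 (adjusted p = 0.0106, edgeR's quasi-likelihood test), a 1.67-fold higher level that stays below the fold minimum. Over 15 alternative settings, among them each tumor left out in turn and EtOH tumors 1 and 2 or 3 and 4 left out together, it ranged from 0.71 to 0.78 and the adjusted p stayed at or under 0.0409. The summed macrophage markers were lower in the treated group. Within that group the tumors stood in the same order by Casp1 as by these markers. Tumors 1 and 5 were nearly tied by Casp1, as were tumors 6 and 7. The marker sum was 1517 CPM in tumor 1 and 901 to 1212 CPM in tumors 5, 6 and 7. Within the EtOH group the orders differed, and tumor 3 had the highest marker sum (3338 CPM) and the lowest Casp1. These orders were noticed after the values were seen, and the part of macrophage content in the level of Casp1 was not tested.

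Casp4 (ENSMUSG00000033538, chr9:5308828-5336783, plus strand), which encodes the caspase of the noncanonical inflammasome that senses intracellular lipopolysaccharide, lies next to Casp1 on the same strand. Since these neighbors were the caspases of this pathway that were higher by adjusted p, the 250 bases before the annotated start of each (RefSeq, GRCm38.p6, 5′ to 3′) are shown, chr9:5298267-5298516 for Casp1 and chr9:5308599-5308848 for the more upstream of the 2 Casp4 starts. Capitals mark matches to the NF-κB consensus on either strand.
Casp1: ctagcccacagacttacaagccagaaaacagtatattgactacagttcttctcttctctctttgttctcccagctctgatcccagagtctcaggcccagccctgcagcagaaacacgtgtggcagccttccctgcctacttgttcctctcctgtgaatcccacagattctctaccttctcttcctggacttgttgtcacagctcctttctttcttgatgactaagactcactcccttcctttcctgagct
Casp4: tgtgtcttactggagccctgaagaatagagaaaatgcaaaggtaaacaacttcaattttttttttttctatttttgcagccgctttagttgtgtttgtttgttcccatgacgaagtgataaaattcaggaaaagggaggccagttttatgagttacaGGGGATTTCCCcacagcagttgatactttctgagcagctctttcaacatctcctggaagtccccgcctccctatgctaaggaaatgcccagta
The match in Casp4 consists of 3 overlapping hits, 83 to 93 bases before the start, and the Casp1 window holds none. Such a match was present in 4.51% of the 32851 RefSeq windows that reach from 250 bases before to 50 bases after a start. Of the 16 windows of the 10 genes, it occurred in 1 window each of Il1r1 (223 to 232 bases before the start) and Nlrp3 (177 to 186 bases before). The interferon-stimulated response element core GAAANNGAAA, found in 3.44% of all windows, occurred in Il1rap, and the STAT-binding core TTCNNNGAA, found in 8.30%, in Il1r2 and Il18r1. The vitamin D receptor direct repeat with a spacer of 3 bases was present in 13 of all windows (0.0396%) and in 0 of these 16. Both strands were searched, and a match describes the letters only.

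Casp4 was at 8.12, 7.89, 6.76 and 8.34 CPM in EtOH tumors 1, 2, 3 and 4 and at 10.9, 16.7, 17.4 and 13.4 CPM in calcipotriol tumors 1, 5, 6 and 7. The groups did not overlap, and tumor 1 was the lowest of the treated group. A log2 fold change of 0.91 was fitted, with a standard error of 0.21 (adjusted p = 0.0471, edgeR's quasi-likelihood test). This call held in 4 of 15 alternative settings, over which the adjusted p ran from 0.00301 to 0.159, so it is much less settled than that of Casp1.

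Nlrp3 (ENSMUSG00000032691, chr11:59541568-59566956, plus strand), the inflammasome sensor, varied widely within both groups. Its level was 5.64, 2.63, 7.86 and 13.5 CPM in EtOH tumors 1, 2, 3 and 4, and 8.70, 2.19, 2.93 and 1.91 CPM in calcipotriol tumors 1, 5, 6 and 7. Calcipotriol tumor 1 lay among the EtOH-treated tumors while the other 3 were at the low end, and the groups overlapped. Its log2 fold change of -0.91 had a standard error of 0.58 and an interval from -2.21 to 0.38 (adjusted p = 0.447, edgeR's quasi-likelihood test). Single tumors moved this value in both directions: it was -1.66 without calcipotriol tumor 1 (adjusted p = 0.0903, same edgeR test), -0.45 without EtOH tumor 4 (adjusted p = 0.727) and -0.069 without EtOH tumors 3 and 4 (adjusted p = 0.966).

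Of 17 further inflammasome and processing genes, 16 could be tested; by adjusted p, 1 was higher (Casp4) and 0 were lower in the edgeR test. At an unadjusted p under 0.05, 2 were higher and 3 lower (8.56% and 9.84% of all tested genes). By adjusted p, DESeq2 called 2 higher and 0 lower (3.75% and 4.46% of all tested genes), and limma-voom called 0 (1.19% and 1.54%). Their median log2 fold change was -0.37, with 6 positive and 10 negative. Naip2, a sensor of bacterial secretion-system proteins, was the gene of this list whose calcipotriol-treated tumors all lay below the EtOH-treated tumors. It was at 7.15, 9.93, 17.9 and 9.92 CPM in EtOH tumors 1, 2, 3 and 4 and at 7.07, 2.79, 5.58 and 6.32 CPM in calcipotriol tumors 1, 5, 6 and 7. The gap between the groups was small, and its log2 fold change of -1.04 did not pass (adjusted p = 0.153, edgeR's quasi-likelihood test).

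**Figure D2:**
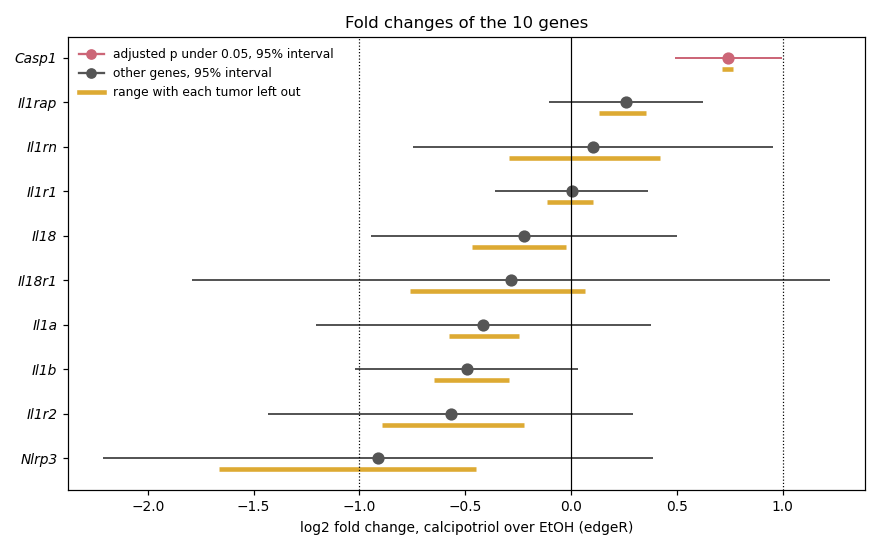
Log2 fold change of calcipotriol-treated over EtOH-treated tumors for the 10 genes (points) with 95% intervals (thin lines) and the range when each tumor is left out in turn (thick lines). Dotted lines mark the fold minimum of 1 in either direction; the interval of Casp1, 0.49 to 0.99, is the one that does not include 0, and the leave-one-out ranges of Il1rn, Il1r1 and Il18r1 cross 0.

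Il1b (ENSMUSG00000027398, chr2:129364570-129371139, minus strand) encodes the IL-1 cytokine that needs caspase-1. It measured 18.9, 22.7, 28.8 and 37.6 CPM in EtOH tumors 1, 2, 3 and 4 and 24.99, 19.2, 14.9 and 17.7 CPM in calcipotriol tumors 1, 5, 6 and 7. EtOH tumors 3 and 4 were the highest of the 8 and calcipotriol tumors 6 and 7 the lowest, with the others intermixed. The mean was 27.0 ± 8.16 CPM against 19.2 ± 4.25 CPM (SD, n = 4 each). On the log2 scale the fold change was -0.49 with a standard error of 0.24 and an interval from -1.02 to 0.03 (adjusted p = 0.300, edgeR's quasi-likelihood test), so a difference was not established at this number of tumors.

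Il1a (ENSMUSG00000027399, chr2:129299610-129309972, minus strand), whose precursor is already active as an alarmin, measured 3.50, 6.47, 6.12 and 3.31 CPM in EtOH tumors 1, 2, 3 and 4. In calcipotriol tumors 1, 5, 6 and 7 it measured 2.46, 4.80, 3.65 and 3.65 CPM. The groups overlapped, and the log2 fold change of -0.41 with a standard error of 0.35 did not pass (adjusted p = 0.582, edgeR's quasi-likelihood test).

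Il18 (ENSMUSG00000039217, chr9:50554827-50581840, plus strand), the other caspase-1 substrate, overlapped between the groups. It was at 4.28, 6.13, 4.54 and 7.89 CPM in EtOH tumors 1, 2, 3 and 4 and at 4.61, 7.22, 4.04 and 3.73 CPM in calcipotriol tumors 1, 5, 6 and 7. The highest tumor of each group was near the other's, and the log2 fold change was -0.22 with an interval from -0.94 to 0.50 (adjusted p = 0.770, edgeR's quasi-likelihood test). Exons of Il1a and Il1b overlap those of opposite-strand transcripts (Gm14023 and Il1bos), and the strand setting of the counting is not given in the sources used here.

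Il1rn (ENSMUSG00000026981, chr2:24336853-24351494, plus strand), the antagonist, was at 5.84, 10.4, 18.9 and 12.4 CPM in EtOH tumors 1, 2, 3 and 4. In calcipotriol tumors 1, 5, 6 and 7 it was at 21.9, 9.68, 9.66 and 9.79 CPM. A single tumor therefore set the top of the treated group, the other 3 lying inside the EtOH range. Over all 8 tumors the log2 fold change was 0.10 with a standard error of 0.38 (adjusted p = 0.920, edgeR's quasi-likelihood test), and -0.29 without calcipotriol tumor 1. In the EtOH group the order of the tumors by Il1rn was the same as by summed macrophage markers, and calcipotriol tumor 1 was highest of its group for both. Il1rl1, the IL-33 receptor gene, followed the macrophage order in both groups. Il1b did so in the treated group, but in the EtOH group its order differed, with tumor 4 above tumor 3. Between the groups, the macrophage sum was lower in every treated tumor, while Il1rl1 was highest in calcipotriol tumors 1 and 5. These orders were noticed after the values were seen, and the part of macrophage content in these levels was not tested.

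The balance of antagonist to agonist within a tumor does not depend on how libraries are scaled. The ratio of Il1rn to Il1b counts was 0.309, 0.459, 0.656 and 0.329 in EtOH tumors 1, 2, 3 and 4 and 0.876, 0.505, 0.649 and 0.554 in calcipotriol tumors 1, 5, 6 and 7. EtOH tumor 3 lay within the treated range and the other 3 below it. The mean log2 ratio was 0.59 higher with calcipotriol (p = 0.143, two-sided exact permutation test over 70 arrangements, 0.267 after Benjamini-Hochberg adjustment over 4 ratios). For Il1rn to Il1a the ratios ranged from 1.61 to 3.72 and from 2.01 to 8.82 in the same order of groups, with a mean log2 difference of 0.51 (p = 0.457 by the same exact test, also 0.457 after adjustment). Without calcipotriol tumor 1 that difference was 0.042.

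Il18bp, the natural inhibitor of IL-18, was the family gene whose groups did not overlap. It was at 4.91, 5.50, 4.37 and 3.70 CPM in EtOH tumors 1, 2, 3 and 4 and at 16.1, 8.63, 7.74 and 6.11 CPM in calcipotriol tumors 1, 5, 6 and 7. The log2 fold change of 1.06 with a standard error of 0.33 did not pass (adjusted p = 0.116, edgeR's quasi-likelihood test), and the DESeq2 test gave an adjusted p of 0.0370. Relative to Il18 counts in the same tumor it was 0.471 to 1.15 in EtOH-treated and 1.20 to 3.48 in calcipotriol-treated tumors. All treated tumors were above all controls, and the mean log2 ratio was 1.20 higher (p = 0.0286, two-sided exact permutation test, the smallest that 4 against 4 tumors can give, and 0.114 after adjustment over 4 ratios). Its exons share 80 bases with Numa1 on the opposite strand.

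Il1r1 (ENSMUSG00000026072, chr1:40225080-40317257, plus strand), the signaling receptor, was at 54.7, 61.2, 52.9 and 43.9 CPM in EtOH tumors 1, 2, 3 and 4 and at 42.0, 51.5, 53.4 and 66.1 CPM in calcipotriol tumors 1, 5, 6 and 7. The groups covered nearly the same range, and the log2 fold change was 0.00 with an interval from -0.35 to 0.36 (adjusted p = 0.995, edgeR's quasi-likelihood test).

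Il1rap (ENSMUSG00000022514, chr16:26581704-26730117, plus strand), the accessory chain shared by IL-1 and IL-33 receptors, was at 26.7, 34.0, 29.1 and 31.2 CPM in EtOH tumors 1, 2, 3 and 4. In calcipotriol tumors 1, 5, 6 and 7 it was at 45.4, 35.2, 28.7 and 35.3 CPM. Of the treated tumors, 3 lay above the controls and tumor 6 among them. The log2 fold change of 0.26 with a standard error of 0.16 did not pass (adjusted p = 0.434, edgeR's quasi-likelihood test). It shares 552 exonic bases with the antisense transcript Gm20319.

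Il1r2 (ENSMUSG00000026073, chr1:40074079-40125231, plus strand), the decoy receptor, was at 7.49, 12.7, 6.20 and 4.50 CPM in EtOH tumors 1, 2, 3 and 4 and at 3.34, 8.36, 4.76 and 4.32 CPM in calcipotriol tumors 1, 5, 6 and 7. The groups overlapped, with a log2 fold change of -0.57 and a standard error of 0.39 (adjusted p = 0.477, edgeR's quasi-likelihood test). Within each group the tumors stood in the same order by Il1r2 as by the sum of 9 neutrophil markers. That sum was 97.3, 108, 36.3 and 34.5 CPM in EtOH tumors 1, 2, 3 and 4 and 42.6, 158, 72.5 and 53.6 CPM in calcipotriol tumors 1, 5, 6 and 7. S100a8 and S100a9 made up most of it, while Ly6g, a defining neutrophil marker, was at 0 to 0.777 CPM and Csf3r was at 6.66 to 17.1 CPM in EtOH-treated and 3.51 to 6.44 CPM in calcipotriol-treated tumors. This order was noticed after the values were seen, and the part of neutrophil content in Il1r2 was not tested. The ratio of Il1r2 to Il1r1 counts was 0.103 to 0.207 in EtOH-treated and 0.0657 to 0.163 in calcipotriol-treated tumors, with a mean log2 difference of -0.54 (p = 0.200, two-sided exact permutation test, 0.267 after adjustment).

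**Figure D3:**
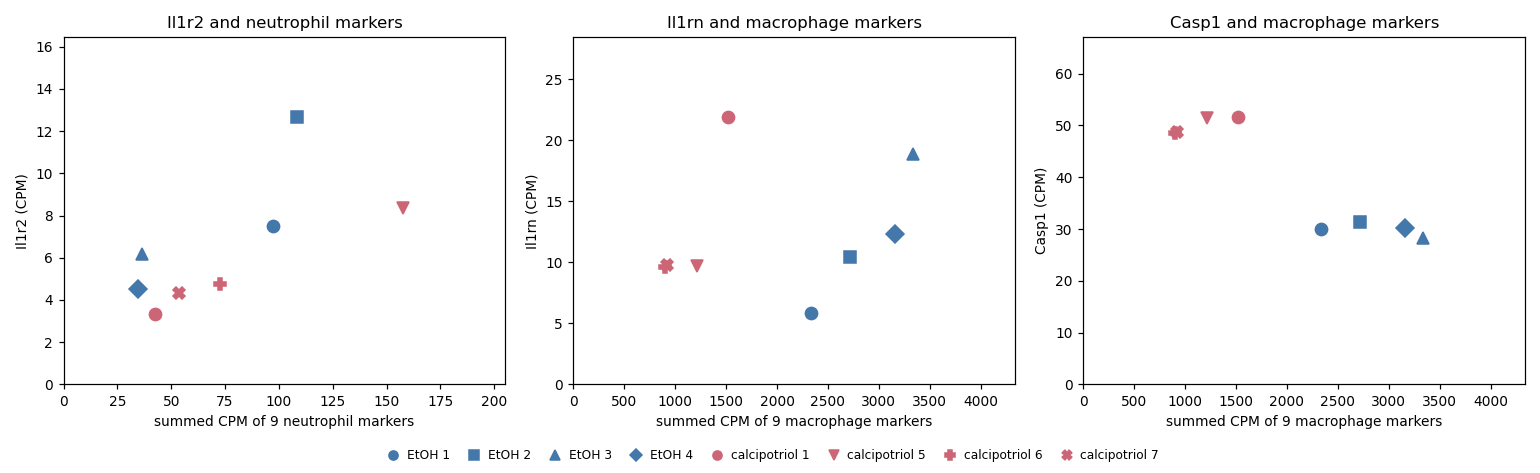
Levels of Il1r2, Il1rn and Casp1 (CPM, vertical axes from 0) against the summed CPM of 9 neutrophil or 9 macrophage markers (horizontal axes), 1 symbol a tumor. Il1r2 orders the tumors as the neutrophil sum does within each group, with EtOH tumor 2 (12.7 CPM) and calcipotriol tumor 5 (8.36 CPM) on top. Casp1 is higher in the group with the lower macrophage sums. It follows the order of these sums within the treated group but not within the EtOH group. These orders were noticed after the values were seen, and the part of cell content in these levels was not tested.

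Il18r1 (ENSMUSG00000026070, chr1:40465552-40500854, plus strand), the ligand-binding chain for IL-18, was the least abundant of the 10 per kilobase. It measured 3.84, 2.82, 5.06 and 2.29 CPM in EtOH tumors 1, 2, 3 and 4 and 0.516, 0.914, 4.76 and 5.34 CPM in calcipotriol tumors 1, 5, 6 and 7. The treated group split: tumors 1 and 5 were below every control, and tumors 6 and 7 were near or above the highest control. The log2 fold change of -0.28 had the widest standard error of the 10, 0.68, and an interval from -1.79 to 1.22 (adjusted p = 0.867, edgeR's quasi-likelihood test).

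Il18r1 lies in a cluster of receptor genes on chromosome 1, in the order Il1r2, Il1r1, Il1rl2, Il1rl1, Il18r1 and Il18rap, all on the plus strand. Il18rap, the accessory chain for IL-18, was at 82.1, 60.0, 74.7 and 69.8 CPM in EtOH tumors 1, 2, 3 and 4 and at 36.9, 52.6, 85.4 and 89.8 CPM in calcipotriol tumors 1, 5, 6 and 7. The treated tumors stood in the same order for Il18rap as for Il18r1, which was noticed after the values were seen. Again tumors 1 and 5 were below every control. Il1rl1, the receptor for IL-33, was at 34.2, 39.1, 57.5 and 46.0 CPM in EtOH tumors 1, 2, 3 and 4 and at 159, 88.8, 30.1 and 36.6 CPM in calcipotriol tumors 1, 5, 6 and 7. Here tumors 1 and 5 were above every control, the opposite of their place for Il18r1 and Il18rap. Neither Il18rap nor Il1rl1 passed between the groups (log2 fold changes -0.12 and 0.83, adjusted p = 0.853 and 0.362, edgeR's quasi-likelihood test), and the value of Il1rl1 was 0.23 without calcipotriol tumor 1. Per kilobase, Il18rap exceeded Il18r1 in every tumor, by 10.5 to 21.7 times in the EtOH group, by 50.9 and 41.1 times in calcipotriol tumors 1 and 5 and by 12.8 and 11.99 times in tumors 6 and 7.

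**Figure D4:**
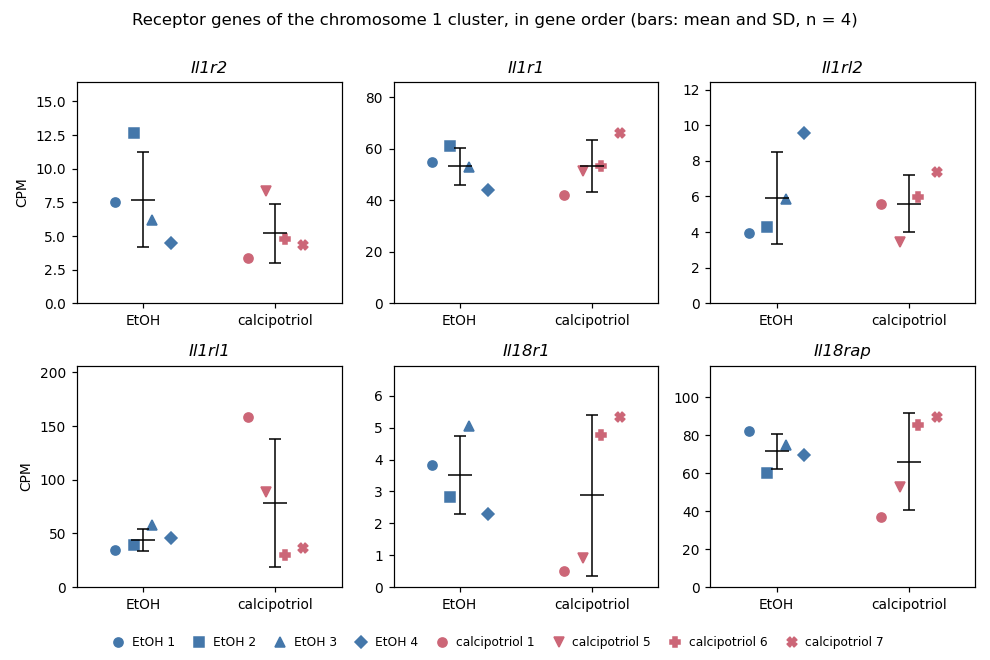
Levels (CPM, linear axes from 0) of the 6 receptor genes of the chromosome 1 cluster in each tumor, with the mean and SD of each group. In calcipotriol tumors 1 and 5, Il1rl1 is at 159 and 88.8 CPM while Il18r1 is at 0.516 and 0.914 CPM. In tumors 6 and 7, Il1rl1 is lower and Il18r1 higher than in tumors 1 and 5.

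The wider IL-1 family list held 13 genes beside the 10. Il36a, Il36b, Il36rn, Il1f10, Il1rapl1 and Il1rapl2 had 0 counts in all 8 tumors, which allows up to 0.119 to 0.146 CPM by library if 3 counts are taken as the limit. The other 7 were tested and 0 of them passed by adjusted p in the edgeR test, 4 with positive and 3 with negative log2 fold changes, and their median was 0.83. At an unadjusted p under 0.05, 2 were higher and 1 lower (8.56% and 9.84% of all tested genes), DESeq2 called 2 higher (Il33 and Il18bp, 3.75% of all tested genes) and limma-voom 0 (1.19%). The alarmin Il33 was by far the most abundant family gene per kilobase, with group means of 231 and 413 CPM per kilobase. Its level was 511, 641, 784 and 735 CPM in EtOH tumors 1, 2, 3 and 4 and 742, 1550, 1158 and 1320 CPM in calcipotriol tumors 1, 5, 6 and 7. Calcipotriol tumor 1 fell within the control range, and the log2 fold change of 0.84 did not pass (adjusted p = 0.0814, edgeR's quasi-likelihood test). Il33 did pass without that tumor (adjusted p = 0.0109, same test), a setting that raised the genes under an adjusted p of 0.05 from 396 to 997. With any other single tumor left out, its adjusted p was 0.111 to 0.189 (same test). Sigirr, an inhibitory receptor, was at 11.3 to 19.2 and 5.53 to 13.0 CPM, with a log2 fold change of -0.75 (adjusted p = 0.196, edgeR's quasi-likelihood test). Without calcipotriol tumor 1 Sigirr passed by adjusted p as well, at -1.01 (adjusted p = 0.0475, same test). Il1rl2, the IL-36 receptor, and its ligand Il36g had log2 fold changes of -0.08 and 1.03 (adjusted p = 0.934 and 0.487, edgeR's quasi-likelihood test), the latter at no more than 2.74 CPM in any tumor.

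Downstream of the receptors, 23 signaling genes from the adaptor Myd88 to the NF-κB subunits were all tested. By adjusted p in the edgeR test, 2 were higher and 0 lower, beside 1.37% of all tested genes each way, with a median log2 fold change of -0.01. The counts were 5 higher and 0 lower at an unadjusted p under 0.05 (8.56% and 9.84% of all tested genes), 4 and 0 by DESeq2 (3.75% and 4.46%) and 2 and 0 by limma-voom (1.19% and 1.54%). Nfkbiz, a nuclear cofactor of NF-κB induced by IL-1, was at 68.1, 42.2, 50.8 and 58.4 CPM in EtOH tumors 1, 2, 3 and 4 and at 83.2, 125, 109 and 119 CPM in calcipotriol tumors 1, 5, 6 and 7. The groups were separate, with a log2 fold change of 0.99 and a standard error of 0.18 (adjusted p = 0.0201, edgeR's quasi-likelihood test; under 0.05 in 10 of 15 alternative settings). Chuk, the IκB kinase subunit alpha, was at 25.6 to 40.3 and 52.2 to 74.4 CPM, a log2 fold change of 0.82 (adjusted p = 0.0419, same edgeR test; under 0.05 in 7 of 15). Nfkbia, the inhibitor IκBα, and Ikbkg, the regulatory kinase subunit, also did not overlap between groups, at 89.5 to 117 against 124 to 211 CPM and 24.9 to 39.2 against 42.4 to 47.5 CPM. Their log2 fold changes of 0.71 and 0.58 did not pass (adjusted p = 0.0510 and 0.0874, edgeR's quasi-likelihood test). The adaptors, IRAK kinases and NF-κB subunits on the list were among the 19 genes with overlapping groups.

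The last list held 22 genes that IL-1 is known to induce in stromal or epithelial cells, although other signals induce them too. Of these, 20 were tested; in the edgeR test 2 were higher past both thresholds and 0 lower, beside 1.07% and 0.948% of all tested genes. By adjusted p alone DESeq2 called 6 higher and 1 lower (3.75% and 4.46% of all tested genes) and limma-voom 3 and 0 (1.19% and 1.54%), and at an unadjusted edgeR p under 0.05 there were 8 and 2 (8.56% and 9.84%). In all, 16 log2 fold changes were positive and 4 negative, and the median was 0.78. Lcn2, an iron-sequestering acute-phase protein, was at 13.7, 15.5, 10.9 and 15.0 CPM in EtOH tumors 1, 2, 3 and 4 and at 43.0, 184, 79.3 and 85.0 CPM in calcipotriol tumors 1, 5, 6 and 7. Its lowest treated tumor was well above the highest control, with a log2 fold change of 2.83 and a standard error of 0.38 (adjusted p = 0.00683, edgeR's quasi-likelihood test). Ptges, which makes prostaglandin E2, was at 10.2, 9.05, 11.3 and 6.97 CPM in EtOH tumors 1, 2, 3 and 4 and at 20.02, 25.8, 20.2 and 24.5 CPM in calcipotriol tumors 1, 5, 6 and 7. The groups were again separate, with a log2 fold change of 1.27 and a standard error of 0.19 (adjusted p = 0.0107, edgeR's quasi-likelihood test). Both adjusted p-values stayed under 0.05 in all 15 alternative settings.

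For a further 4 genes of this list the groups did not overlap, with calcipotriol higher, but none of the 4 passed in the edgeR test. The cytokine Lif was at 13.3 to 42.1 and 62.2 to 73.1 CPM, a log2 fold change of 1.37 (adjusted p = 0.0638, edgeR's quasi-likelihood test). Csf3, the granulocyte growth factor G-CSF, was at 0 to 1.07 CPM in EtOH-treated tumors and at 1.07, 35.6, 7.36 and 4.07 CPM in calcipotriol tumors 1, 5, 6 and 7, so that tumor 1 and the highest control (tumor 1) differed by less than the rounding shown. The cytokine Il11 was at 0 to 0.438 and 0.763 to 6.08 CPM, and the neutrophil-attracting chemokine Cxcl5 at 0 to 2.80 and 3.73 to 7.97 CPM. The fitted log2 fold changes of Csf3, Il11 and Cxcl5 were 4.71, 3.24 and 2.36 (adjusted p = 0.0608, 0.110 and 0.278, edgeR's quasi-likelihood test). By DESeq2 the adjusted p was 0.00158 for Lif, 0.00878 for Csf3, 0.00769 for Il11 and 0.427 for Cxcl5. By limma-voom it was 0.0321, 0.376, 0.228 and 0.113 in the same order. Mmp9, a matrix protease made by macrophages and neutrophils, was the gene of the list lower in every treated tumor, at 6.04 to 16.7 and 3.93 to 5.64 CPM, with a log2 fold change of -1.10 (adjusted p = 0.123, same edgeR test). For Mmp9 the adjusted p was 0.0424 by DESeq2, the 1 lower call of that test on this list, and 0.159 by limma-voom.

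Across these 4 lists, 66 of 75 genes were tested, and by adjusted p in the edgeR test 5 were higher (Casp4, Nfkbiz, Chuk, Lcn2 and Ptges) and 0 lower, beside 1.37% of all tested genes in each direction. Groups did not overlap for 12 as higher and 2 as lower, beside 6.32% and 6.16% of all tested genes. The median log2 fold change of the 66 was 0.13. The lists share no gene with the 10 and were chosen with earlier results of these data known.

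**Figure D5:**
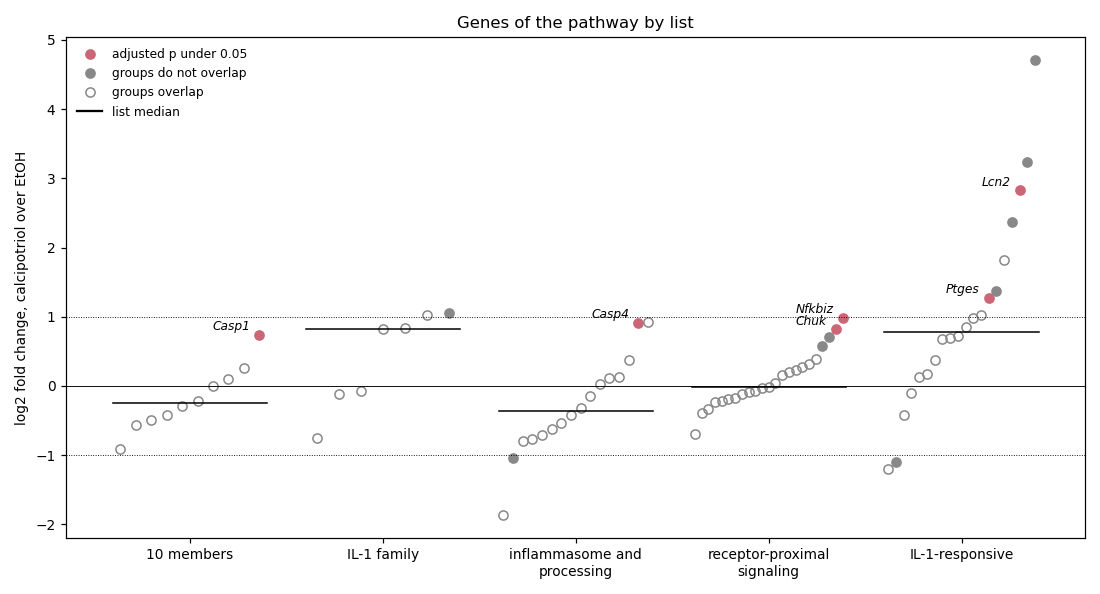
Log2 fold change of calcipotriol-treated over EtOH-treated tumors for every tested gene of the 10 members and the 4 lists, 1 point a gene, sorted within a list, with the list median as a line. Red points passed by adjusted p and filled gray points are genes whose groups do not overlap; the medians are -0.25, 0.83, -0.37, -0.01 and 0.78 from left to right, and no gene with a negative value passed.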

How the data were processed

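The authors sequenced RNA from 8 whole PyMt tumors and deposited an expected count (an estimated count that need not be whole) per gene and tumor, unscaled between tumors. The submitters' processing notes name STAR 2.5.3, RSEM 1.3.1, DESeq2 1.24.0 and GRCm38; the annotation release and strand setting are not given in the sources used here. The study's methods name limma with the thresholds kept here.

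Counts were rounded to whole numbers (between 4.20% and 6.22% of values per tumor were not whole) and identifiers matched to GENCODE M21 (52081 of 55414; all 155 listed genes found). Library totals were 19685419 to 25084713, and 3 counts correspond to 0.119 to 0.146 CPM; such limits cover counting error only. In R 4.3.3, edgeR 4.0.16 (filterByExpr, TMM, glmQLFit, glmQLFTest) compared the 4 calcipotriol-treated with the 4 EtOH-treated tumors. CPM used TMM library sizes. Alternatives were DESeq2 1.42.0 size factors and test, limma-voom 3.58.1, no filter, at least 10 counts in every tumor, no fold minimum, each tumor left out, and 2 pairs of EtOH tumors left out, the last chosen after the data were seen. Ratios used counts plus 0.5 and an exact permutation test, with 3 added instead as an alternative. The scripts were run on simulated counts with the same dispersion for every gene and no subgroups of tumors. This was a check of the code only, since these tumors do hold subgroups. All members were named with values, as were the IL-1 family list and the list genes that passed both thresholds or whose groups did not overlap; Epcam, Krt8, Adgre1, Csf1r, Lyz2, Ly6g, S100a8, S100a9 and Csf3r were named as markers. Members, lists and tests were chosen with earlier results of these data known. The labels do not say that tumors are separate animals; the study's methods call them biological replicates.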

Additional observations from a re-analysis of the deposited data

Results flagged for a closer look

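For each named gene, ratio and marker sum, the 4 values in a group were searched for a tumor lying far from the rest. The measure was the gap to its neighbor as a share of the group's range on the log2 scale (Dixon's 95% limit for 4 samples). Of 90 such groups, 3 held one, where chance gives about 4.5. Il1rn in calcipotriol tumor 1 was at 21.9 CPM, against 9.66 to 9.79 CPM in the other treated tumors. Lif in calcipotriol tumor 1 was at 62.2 CPM, against 72.0 to 73.1 CPM in the others. Il11 in EtOH tumor 2 was at 0 CPM, against 0.309 to 0.438 CPM in the other controls.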

How the results depend on the processing

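No paired analysis was made because neither the labels nor the study's methods describe a pairing of treated with control tumors. With no fold minimum, 1 of the 10 genes passed (Casp1) in place of 0. The 292 genes past both thresholds became 458 with no filter on low counts, 644 by DESeq2, 177 without EtOH tumors 1 and 2, 605 without EtOH tumors 3 and 4, and 110 to 642 with each tumor left out, the highest without calcipotriol tumor 1 and the lowest without calcipotriol tumor 6. Of 30 named genes, 25 kept their direction in every alternative, though not their size. Without EtOH tumors 1 and 2, Il1b was -0.79 and Il1r2 -0.039; without EtOH tumors 3 and 4, Il1b was -0.12, Il1r2 -0.96 and Nlrp3 -0.069. Il1rn ran from -0.29 to 0.42 with each tumor left out and was -0.29 without EtOH tumors 1 and 2 and 0.65 without 3 and 4. Il1r1 was -0.0057 by limma-voom, -0.12 without EtOH tumors 3 and 4, and -0.12 to 0.10 with each tumor left out. Il1rl2 was 0.45 without EtOH tumors 3 and 4 and -0.46 without 1 and 2. With each tumor left out, Il18r1 ran from -0.76 to 0.066, Il18rap from -0.29 to 0.084 and Il1rl2 from -0.24 to 0.25. The log2 ratio difference of Il1rn to Il1a ran from 0.042 to 0.75, that of Il1rn to Il1b from 0.44 to 0.81 (p = 0.0286 without EtOH tumor 3, exact permutation test), and that of Il18bp to Il18 from 0.91 to 1.42, with an exact permutation p of 0.0571 without calcipotriol tumor 1 or any 1 EtOH tumor. The cause of these changes was not tested. With 4 tumors a group, the lowest permutation p is 0.0286, and wide intervals, above all of Il18r1 and Nlrp3, leave large differences undetected.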

Other observations

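Among the listed genes, some differed between EtOH tumors 1 and 2 on one side and 3 and 4 on the other; these genes were chosen after their values were seen, and the difference was not tested. In EtOH tumors 1, 2, 3 and 4 the monocyte chemokine Ccl2 was at 10.5, 5.99, 43.9 and 55.1 CPM, and in the calcipotriol-treated tumors at 31.5 to 64.3 CPM. Cxcl2, a neutrophil chemokine, was at 17.4, 22.8, 41.6 and 39.2 CPM in the same EtOH tumors and at 24.6 to 41.4 CPM with calcipotriol. Il6 was at 0.584, 2.14, 4.66 and 4.41 CPM and at 0.834 to 3.80 CPM. None of Ccl2, Cxcl2 and Il6 passed between the groups (adjusted p = 0.581, 0.803 and 0.951, edgeR's quasi-likelihood test). Il1b followed the same division of the EtOH tumors, with 18.9 and 22.7 CPM in tumors 1 and 2 and 28.8 and 37.6 CPM in tumors 3 and 4. P2rx7, the ATP-gated channel upstream of Nlrp3, divided them the other way, at 62.6 and 50.1 CPM in tumors 1 and 2 and 30.5 and 28.2 CPM in tumors 3 and 4, with 21.7 to 30.2 CPM in the calcipotriol-treated tumors. Summed markers of fibroblasts, macrophages, mast cells and adipocytes were higher in EtOH tumors 3 and 4. Those of neutrophils, endothelium, epithelium, erythroid cells, T and NK cells and skin keratinocytes were higher in 1 and 2, and dendritic cell markers did not divide them. The part of cell content in this division was not tested.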
